A study of Mus musculus with 12 samples.

Results

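The cholesterol synthesis and uptake genes described here are 27 human genes chosen by symbol. All 27 were found among the 36292 gene symbols of the deposited table, and all 27 were among the 15836 genes that passed the filter on low counts. They hold 2 enzymes at the entry of the pathway, 6 that make and join isoprenoid units, 3 that build squalene and close it into lanosterol, 9 that turn lanosterol into cholesterol, 3 that make up the SREBP sensor and 4 proteins of cholesterol uptake and transport. They are not every gene of the pathway. The RNA was from Hep3B, a cell line of human liver cancer, implanted under the skin of female BALB/c nu/nu mice of about 8 weeks, with 3 tumors from separate mice in each of 4 groups. The groups were H3B-6527 (300 mg/kg), which blocks FGFR4 selectively; the combination of H3B-6527 (300 mg/kg) and lenvatinib (10 mg/kg); lenvatinib (10 mg/kg), which blocks several kinases, among them the receptors for VEGF and FGF; and vehicle. Every group was dosed by oral gavage once a day, starting near a mean tumor volume of 500 mm3, and was sampled 8 hours after dose 4. The model is a single cell line in a mouse without a thymus, and the labels give no batch.

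Cells make cholesterol from acetyl-CoA through mevalonate, isoprenoid units, squalene and lanosterol, and the isoprenoid units also feed protein prenylation, ubiquinone and dolichol. The transcription factor SREBP2, encoded by SREBF2, is escorted by SCAP from the endoplasmic reticulum when sterols are low and then switches on most enzymes of the pathway together, while INSIG1 holds SCAP back when sterols are high. In liver cells cholesterol is also taken up, stored as esters, exported, or turned into bile acids by CYP7A1, a gene that FGFR4 signaling keeps low.

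Library totals ran from 23819300 to 40944973 counts, the smallest being H3B-6527 replicate 3. The H3B-6527 tumors differed most among themselves, and on the leading component of all tested genes, which held 64.8% of the variance, their replicates 1, 2 and 3 lay at 74.8, 46.9 and 24.2. Among 10 FGFR and ERK output genes looked up as a check of the inhibitor, 10 were lower with H3B-6527 and 10 with the combination than with vehicle, and 0 passed with lenvatinib. Of all genes tested, 24.3% were lower with H3B-6527, 25.3% with the combination and 0% with lenvatinib. DUSP6, a phosphatase induced by ERK, averaged 5.13 CPM with H3B-6527, 10.5 with the combination, 84.2 with lenvatinib and 80.5 with vehicle. All 7 hepatocyte and hepatoma markers were above 1 CPM, and their sum ran from 96120 to 136800 CPM with H3B-6527, from 116700 to 131400 with the combination, from 63230 to 80940 with lenvatinib and from 61490 to 67130 with vehicle. Most of this sum was ALB, and of the 7 markers 5 rose and 1, APOA2, fell with H3B-6527, while 6 rose and 0 fell with the combination. Of all genes tested, 25.2% rose with H3B-6527 and 24.8% with the combination. Markers of host cells, read under human symbols, were low. The 4 endothelial markers in the table summed to at most 0.192 CPM in any tumor, and 2 of 5 fibroblast markers, DCN and LUM, were under 1 CPM in every tumor. The sums of all 5, carried mostly by COL1A2, were 3.01 to 3.11 CPM with H3B-6527, 2.39 to 3.79 with the combination, 5.81 to 7.18 with lenvatinib and 7.97 to 9.02 with vehicle. The 5 leukocyte markers summed to 133 to 200.5 CPM with H3B-6527, 148 to 184 with the combination, 99.7 to 109 with lenvatinib and 84.0 to 116 with vehicle, nearly all of it CD68, while PTPRC stayed under 1 CPM on average in each group. Muscle markers summed to at most 2.37 CPM. Skin and adipose markers summed to 27.8 to 71.0 CPM with H3B-6527, 32.8 to 50.6 with the combination, 4.46 to 7.20 with lenvatinib and 3.18 to 3.71 with vehicle, nearly all of it the lipid droplet gene PLIN1. The part of these cell markers in the results below was not tested, and in bulk tumors fewer cells of a type and less RNA per cell cannot be told apart.

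The first question is whether blocking FGFR4 alone moved the pathway. The members did not move together with H3B-6527. Members went opposite ways, with lanosterol synthase (LSS), the sterol reductase TM7SF2 and the cholesterol transporter NPC1L1 higher and squalene synthase (FDFT1) and the sterol desaturase SC5D lower. Of the 27 members, 8 rose and 6 fell at an adjusted p under 0.05 (edgeR's quasi-likelihood test, Benjamini-Hochberg over 15836 genes), and 13 did not pass. Of all genes tested, 25.2% rose and 24.3% fell, so the members' shares of 29.6% and 22.2% were near the background. Groups did not overlap for 7 members higher and 7 lower, 25.9% each, against 28.1% and 27.9% of all genes. The members' median log2 fold change was -0.04, against 0.01 for all genes tested. With library totals in place of TMM scaling the median of all genes shifted by -0.12, 5 members rose and 9 fell, and all genes split into 3022 higher and 4960 lower instead of 3987 and 3842.

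With both agents together, in the combination against vehicle, 11 members rose, 5 fell and 11 did not pass. Of all genes tested, 24.8% rose and 25.3% fell. The members' shares were 40.7% and 18.5%, and their median log2 fold change was 0.12, against 0.01 for all genes tested. Groups did not overlap for 12 members higher and 6 lower, 44.4% and 22.2%, against 31.8% and 32.8% of all genes. With library totals the median of all genes moved by -0.15, 7 members rose and 6 fell, and all genes split into 2923 higher and 5339 lower instead of 3924 and 4006. The number of members that fell was 1 without vehicle replicate 1, vehicle replicate 3 or combination replicate 1 and 2 without combination replicate 2. Both comparisons use the same 3 vehicle tumors, so their values are given side by side below and their likeness is not read as a result.

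**Figure D1:**
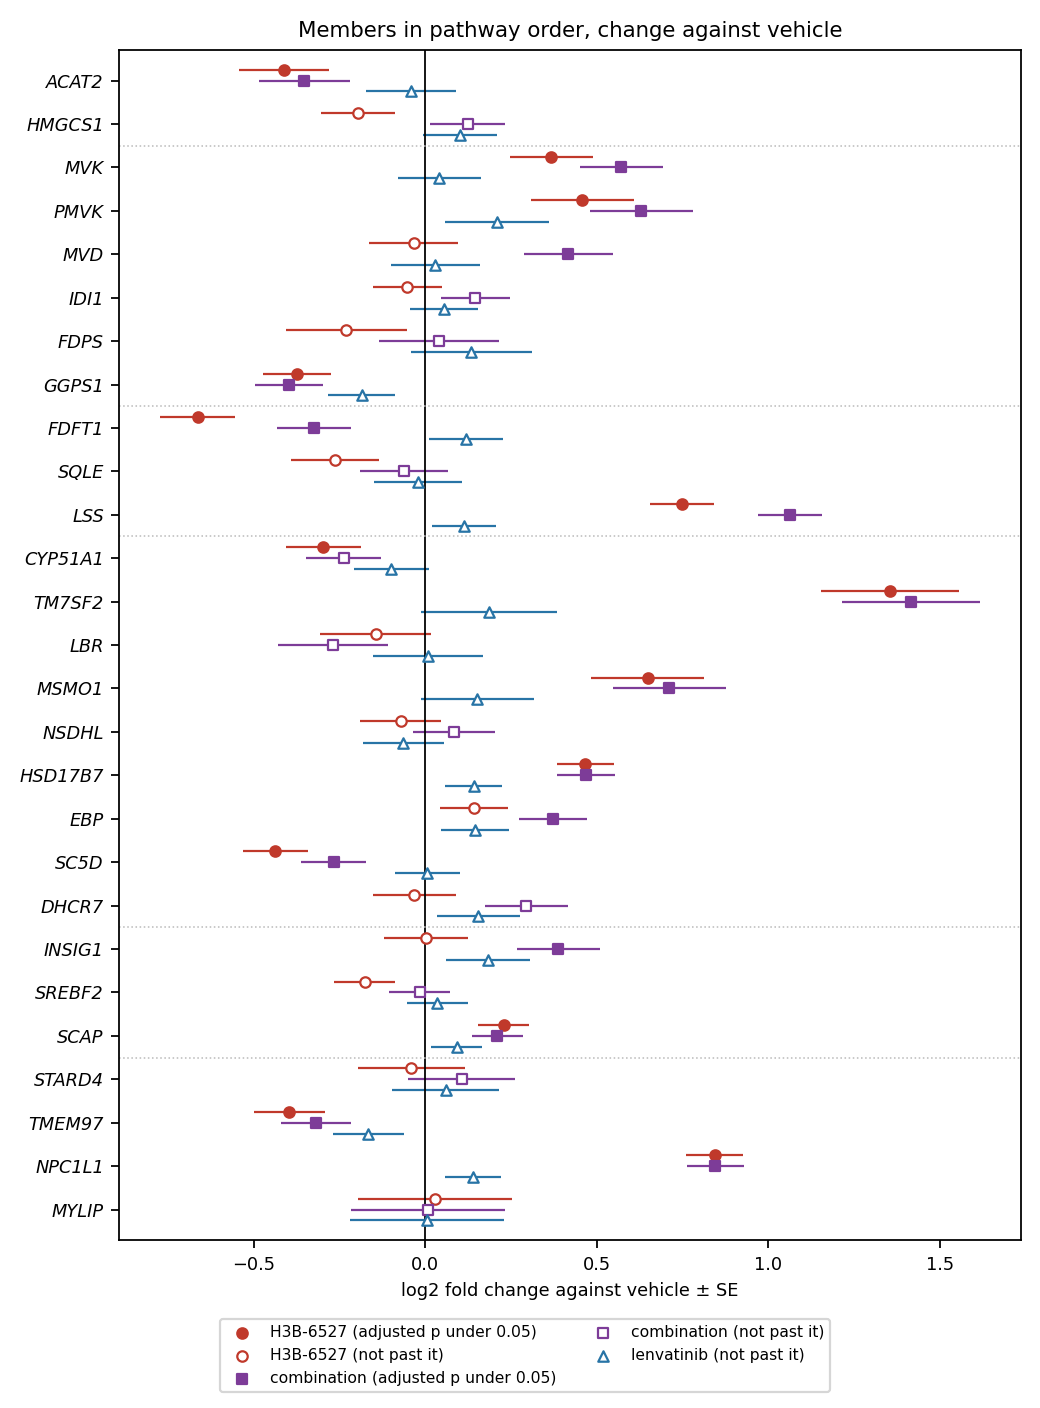
Log2 fold change against vehicle with its SE for the 27 members, top to bottom in pathway order with dotted lines between roles, for H3B-6527 (circles), combination (squares) and lenvatinib (triangles), n = 3 tumors per group. Filled symbols passed an adjusted p under 0.05, as 14 did with H3B-6527, 16 with the combination and 0 with lenvatinib, and TM7SF2 lies farthest to the right at 1.35 with H3B-6527 and 1.42 with the combination.

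At the entry of the pathway, ACAT2, the cytosolic thiolase that joins acetyl-CoA units, was lower with the FGFR4 inhibitor. It averaged 139 ± 15.3 CPM with H3B-6527, 145 ± 13.6 with the combination, 180.5 ± 30.2 with lenvatinib and 186 ± 21.9 with vehicle (SD, n = 3 tumors, CPM being the count over the TMM-scaled library size). It fell by 0.41 ± 0.13 on the log2 scale with H3B-6527 (SE, edgeR adjusted p = 0.0197), and by 0.35 ± 0.13 with the combination (edgeR adjusted p = 0.0398), where its tumors overlapped those of vehicle. The next enzyme, HMGCS1, which makes HMG-CoA, did not pass. Its levels were 157 ± 16.8 CPM with H3B-6527, 196 ± 17.9 with the combination, 193 ± 22.9 with lenvatinib and 179.9 ± 9.25 with vehicle (SD, n = 3). Its log2 fold changes against vehicle were -0.20 ± 0.11 with H3B-6527 (edgeR adjusted p = 0.151) and 0.12 ± 0.11 with the combination (edgeR adjusted p = 0.365).

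Among the isoprenoid enzymes, the kinases at the start were higher and the branch enzyme GGPS1 was lower. Mevalonate kinase (MVK) was at 147, 143 and 148 CPM in the H3B-6527 tumors, 166, 158 and 179.7 in the combination tumors, 113, 139.9 and 96.3 in the lenvatinib tumors and 116, 99.4 and 124 in the vehicle tumors. Every H3B-6527 and combination tumor lay above every lenvatinib and vehicle tumor. MVK rose by 0.37 ± 0.12 with H3B-6527 (edgeR adjusted p = 0.0233) and by 0.57 ± 0.12 with the combination (edgeR adjusted p = 0.00178). PMVK, which adds the next phosphate, was at 16.2, 15.4 and 11.9 CPM with H3B-6527, 18.2, 14.7 and 16.2 with the combination, 13.3, 11.5 and 11.8 with lenvatinib and 10.9, 12.3 and 8.48 with vehicle. The combination tumors stood above all vehicle tumors, whereas 1 H3B-6527 tumor lay among them. PMVK rose by 0.46 ± 0.15 with H3B-6527 (edgeR adjusted p = 0.0226) and by 0.63 ± 0.15 with the combination (edgeR adjusted p = 0.00370).

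MVD, the decarboxylase that makes isopentenyl diphosphate, was at 26.9, 36.9 and 35.4 CPM with H3B-6527, 45.3, 47.8 and 42.6 with the combination, 29.4, 39.9 and 34.3 with lenvatinib and 35.9, 31.2 and 34.5 with vehicle. The 3 combination tumors were above all other tumors. MVD rose by 0.42 ± 0.13 with the combination (edgeR adjusted p = 0.0164), and its log2 fold change with H3B-6527 alone was -0.03 ± 0.13 (edgeR adjusted p = 0.851). Set directly against H3B-6527, the combination did not pass for MVD (0.45 ± 0.13, edgeR adjusted p = 0.344). GGPS1 makes the geranylgeranyl chain used in protein prenylation and draws isoprenoid away from sterols. It averaged 10.1 ± 1.10 CPM with H3B-6527, 10.0 ± 0.43 with the combination, 11.6 ± 0.25 with lenvatinib and 13.2 ± 0.63 with vehicle (SD, n = 3). It fell by 0.37 ± 0.10 with H3B-6527 (edgeR adjusted p = 0.00727) and by 0.40 ± 0.10 with the combination (edgeR adjusted p = 0.00491), with no overlap between either group and vehicle. IDI1, the isomerase of the isoprenoid unit, and FDPS, which makes farnesyl diphosphate, did not pass. IDI1 had log2 fold changes against vehicle of -0.05 ± 0.10 with H3B-6527 and 0.15 ± 0.10 with the combination, on levels of 53.0 ± 1.89, 60.8 ± 3.83, 57.1 ± 8.69 and 55.0 ± 3.01 CPM with H3B-6527, the combination, lenvatinib and vehicle. FDPS varied widely in the H3B-6527 group, with 229, 383 and 369.7 CPM, against 417, 341 and 393 CPM with vehicle. Its log2 fold changes were -0.23 ± 0.18 with H3B-6527 and 0.04 ± 0.18 with the combination. FDPS has processed pseudogenes that were not analysed here and that can share its reads.

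The 3 enzymes from farnesyl diphosphate to lanosterol diverged. FDFT1, squalene synthase and the first enzyme committed to sterols, was at 79.9, 84.4 and 94.3 CPM with H3B-6527, 98.4, 108 and 121 with the combination, 137, 168 and 139 with lenvatinib and 144, 122 and 143 with vehicle. All 6 tumors that received H3B-6527 lay below all 6 that did not. FDFT1 fell by 0.66 ± 0.11 with H3B-6527 (edgeR adjusted p = 3.00e-04), the largest fall among the members, and by 0.32 ± 0.11 with the combination (edgeR adjusted p = 0.0245). LSS, which folds oxidized squalene into lanosterol, went the other way. It was at 189.6, 171 and 168 CPM with H3B-6527, 214, 239.7 and 204 with the combination, 121, 106 and 113 with lenvatinib and 114, 96.5 and 104 with vehicle. The lowest tumor given H3B-6527 was well above the highest tumor without it, and each combination tumor was above each H3B-6527 tumor. LSS rose by 0.75 ± 0.09 with H3B-6527 (edgeR adjusted p = 3.56e-05) and by 1.06 ± 0.09 with the combination (edgeR adjusted p = 3.79e-06). SQLE, the squalene epoxidase that stands between FDFT1 and LSS, did not pass, with 93.2 ± 10.1 CPM with H3B-6527, 107 ± 10.9 with the combination, 110.2 ± 16.8 with lenvatinib and 112 ± 13.9 with vehicle (SD, n = 3). Its log2 fold changes against vehicle were -0.26 ± 0.13 with H3B-6527 (edgeR adjusted p = 0.108) and -0.06 ± 0.13 with the combination (edgeR adjusted p = 0.719).

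The split between FDFT1 and LSS does not depend on how libraries are scaled, since it can be read as a ratio of counts within a tumor. The ratio of LSS to FDFT1 counts was 2.37, 2.03 and 1.78 with H3B-6527, 2.17, 2.22 and 1.69 with the combination, 0.886, 0.63 and 0.809 with lenvatinib and 0.793, 0.788 and 0.727 with vehicle. Every tumor given H3B-6527 had more LSS than FDFT1 counts and every other tumor had fewer. The pair was chosen after its values were seen and is given without a test. Counts are not corrected for gene length, so only the change of the ratio between tumors can be read.

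**Figure D2:**
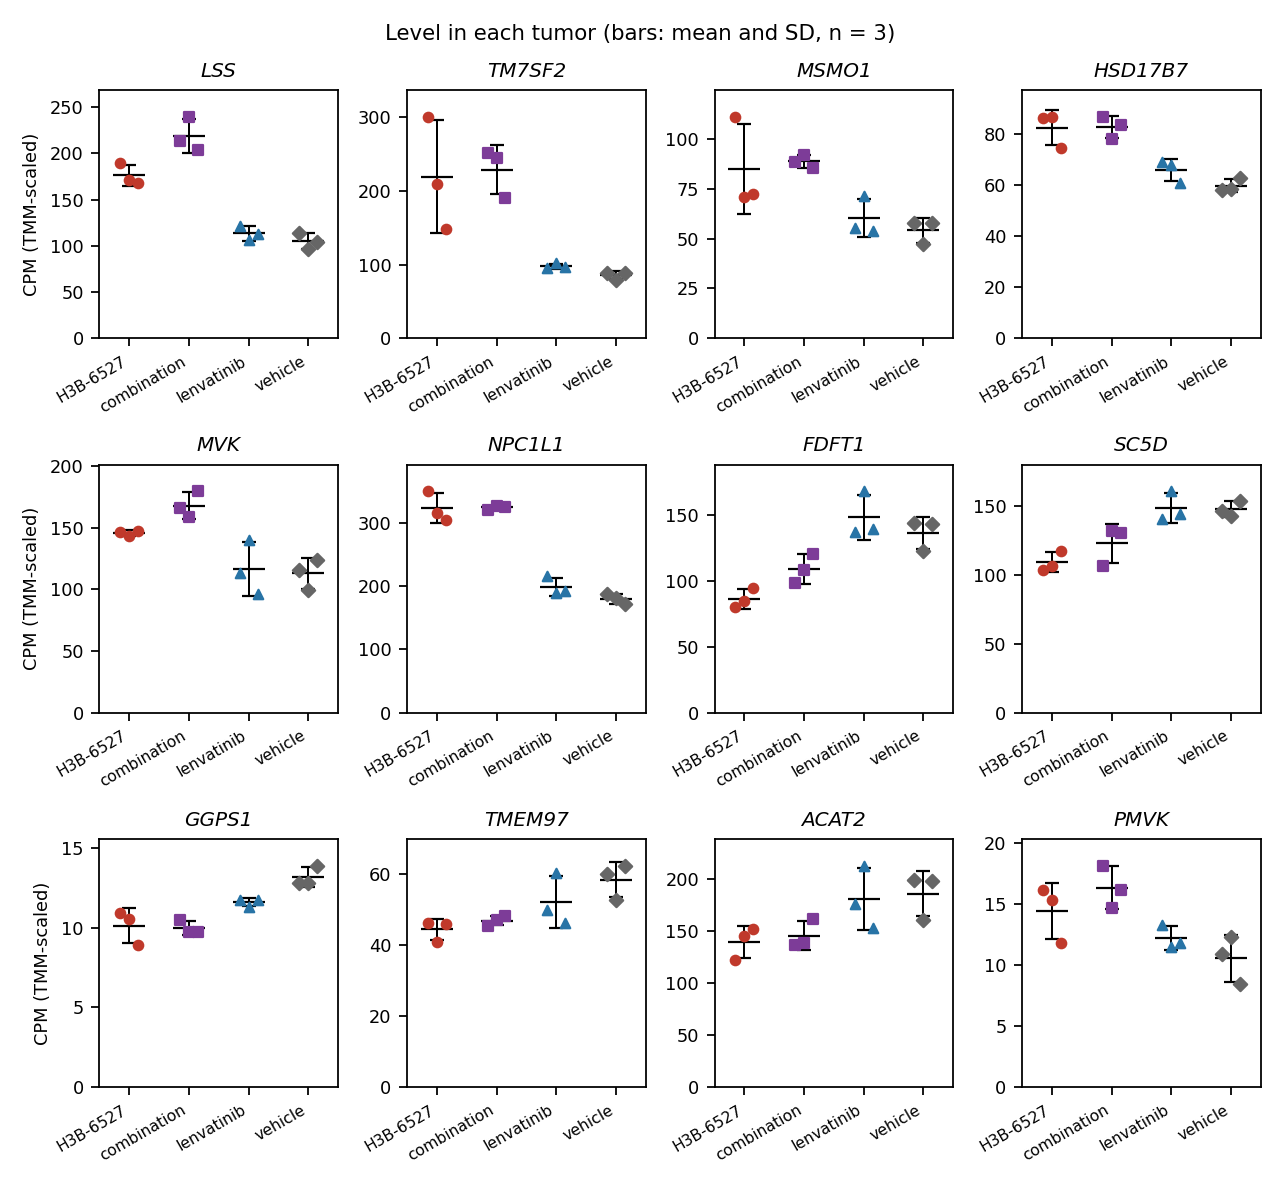
CPM (TMM-scaled, linear axis from 0) of 12 members in each tumor, with H3B-6527, combination, lenvatinib and vehicle from left to right and bars for the mean and SD of 3 tumors. LSS, TM7SF2, MSMO1, MVK and NPC1L1 are high in the tumors given H3B-6527 and FDFT1 and SC5D are low in them, with FDFT1 at 79.9 to 94.3 CPM with H3B-6527 and 122 to 144 CPM with vehicle.

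Of the 9 enzymes from lanosterol to cholesterol, 3 rose and 2 fell with H3B-6527, and 4 rose and 1 fell with the combination. Of all genes tested, 25.2% rose and 24.3% fell with H3B-6527, and 24.8% and 25.3% with the combination, so counts this small are not read as a result. TM7SF2, a reductase of the sterol C14 double bond, showed the largest rise among the members. It was at 301, 209 and 148 CPM with H3B-6527, 252, 245 and 190.2 with the combination, 95.4, 102 and 96.2 with lenvatinib and 88.6, 79.6 and 89.2 with vehicle. Tumors given H3B-6527 were all above the others, but they spread over a wide range. TM7SF2 rose by 1.35 ± 0.20 with H3B-6527 (edgeR adjusted p = 1.95e-04) and by 1.42 ± 0.20 with the combination (edgeR adjusted p = 1.43e-04). Its counterpart LBR, a lamin receptor of the inner nuclear membrane with the same reductase activity, did not pass in either comparison. LBR was at 152, 171 and 245 CPM with H3B-6527, 139, 180.3 and 201 with the combination, 214, 214 and 203 with lenvatinib and 202, 204 and 221 with vehicle. Every combination tumor lay below every vehicle tumor, replicate 3 by a small margin, whereas the H3B-6527 tumors lay on both sides of them. Its log2 fold changes against vehicle were -0.14 ± 0.16 with H3B-6527 (edgeR adjusted p = 0.484) and -0.27 ± 0.16 with the combination (edgeR adjusted p = 0.186).

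Within the H3B-6527 group TM7SF2 and LBR ran in opposite order over the tumors, the same order as on the leading component of all genes. The ratio of TM7SF2 to LBR counts was 1.98, 1.22 and 0.605 with H3B-6527, 1.81, 1.36 and 0.946 with the combination, 0.446, 0.475 and 0.473 with lenvatinib and 0.438, 0.391 and 0.403 with vehicle. All tumors given H3B-6527 were above all others, and their spread was far wider (mean 1.27 ± 0.69 with H3B-6527 and 0.411 ± 0.024 with vehicle, SD, n = 3). This pair too was chosen after its values were seen and has no test.

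**Figure D3:**
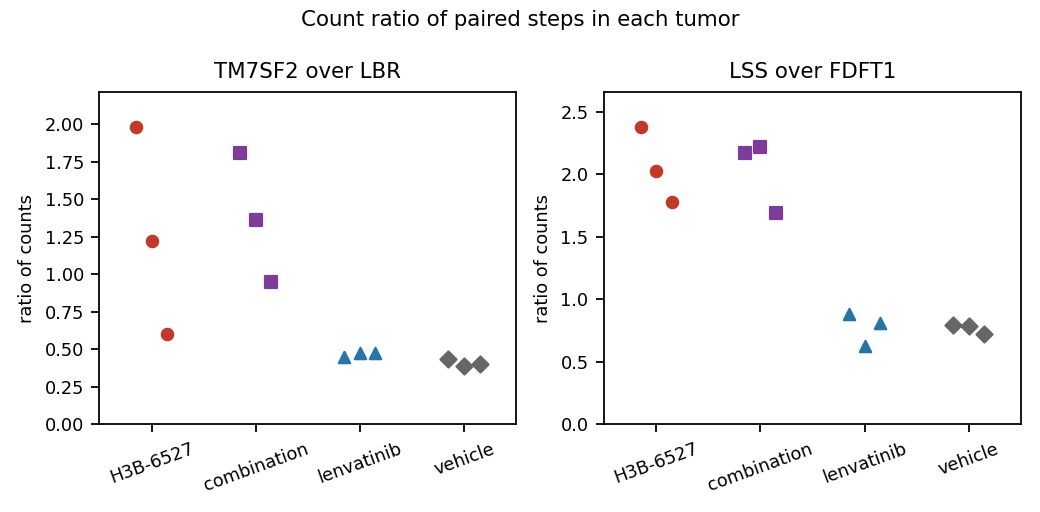
Ratio of counts of TM7SF2 to LBR (left) and of LSS to FDFT1 (right) in each of the 12 tumors, on a linear axis from 0, with H3B-6527, combination, lenvatinib and vehicle from left to right. The tumors given H3B-6527 lie above the others in both panels, with TM7SF2 over LBR at 0.605 to 1.98 with H3B-6527 and 0.391 to 0.438 with vehicle.

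MSMO1, the oxidase that starts removal of the C4 methyl groups, was at 111, 71.0 and 72.5 CPM with H3B-6527, 88.5, 92.2 and 85.7 with the combination, 55.4, 71.4 and 54.0 with lenvatinib and 57.8, 47.0 and 57.8 with vehicle. Both groups given H3B-6527 were above vehicle, and lenvatinib replicate 2 reached the lower H3B-6527 tumors. MSMO1 rose by 0.65 ± 0.17 with H3B-6527 (edgeR adjusted p = 0.00629), a value that was 0.40 without H3B-6527 replicate 1, and by 0.71 ± 0.17 with the combination (edgeR adjusted p = 0.00346). HSD17B7, the ketosteroid reductase of the same demethylation, was at 86.5, 86.8 and 74.7 CPM with H3B-6527, 86.9, 78.0 and 83.6 with the combination, 69.2, 67.9 and 60.9 with lenvatinib and 58.1, 58.6 and 62.8 with vehicle. It was higher in every tumor given H3B-6527 than in any other. HSD17B7 rose by 0.47 ± 0.08 with H3B-6527 (edgeR adjusted p = 5.61e-04) and by 0.47 ± 0.08 with the combination (edgeR adjusted p = 5.27e-04). It has a near-identical transcribed pseudogene that was not analysed here, and the counting could have divided reads between them. NSDHL, the dehydrogenase between MSMO1 and HSD17B7, did not pass, with log2 fold changes of -0.07 ± 0.12 with H3B-6527 and 0.08 ± 0.12 with the combination on levels of 49.4 ± 2.26, 55.1 ± 3.45, 49.7 ± 7.89 and 52.0 ± 6.87 CPM with H3B-6527, the combination, lenvatinib and vehicle.

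SC5D, the desaturase near the end of the pathway, was at 103, 107 and 117 CPM with H3B-6527, 106, 131 and 131 with the combination, 140.2, 161 and 144 with lenvatinib and 147, 143 and 154 with vehicle. All tumors given H3B-6527 were below all others. SC5D fell by 0.44 ± 0.09 with H3B-6527 (edgeR adjusted p = 0.00212) and by 0.27 ± 0.09 with the combination (edgeR adjusted p = 0.0322). CYP51A1, the lanosterol demethylase, fell by 0.30 ± 0.11 with H3B-6527 (edgeR adjusted p = 0.0385), and its log2 fold change with the combination was -0.24 ± 0.11 (edgeR adjusted p = 0.0893). It averaged 103 ± 10.8 CPM with H3B-6527, 108 ± 12.5 with the combination, 119 ± 12.4 with lenvatinib and 127 ± 8.67 with vehicle (SD, n = 3). The sterol isomerase EBP rose by 0.37 ± 0.10 with the combination (edgeR adjusted p = 0.00732), on levels of 176 ± 7.93 CPM with the combination and 136 ± 6.46 with vehicle, and its log2 fold change with H3B-6527 was 0.14 ± 0.10 (150.0 ± 11.9 CPM, edgeR adjusted p = 0.249). DHCR7, the last reductase of the pathway, did not pass. Its 124, 155 and 185 CPM with H3B-6527 straddled the 162, 159.9 and 152 CPM with vehicle, and its log2 fold change was -0.03 ± 0.12. With the combination it was at 180.4, 209 and 192 CPM, all above vehicle, with a log2 fold change of 0.29 ± 0.12 (edgeR adjusted p = 0.0575).

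Differences in the sensor genes were small. SREBF2 was at 425, 439.8 and 489 CPM with H3B-6527, 459, 511 and 542 with the combination, 503, 539.9 and 525 with lenvatinib and 522, 500.3 and 507 with vehicle. The H3B-6527 tumors were all below vehicle, by a small margin. The log2 fold change of SREBF2 was -0.18 ± 0.09 with H3B-6527 (edgeR adjusted p = 0.113, or 0.0382 without H3B-6527 replicate 3) and -0.02 ± 0.09 with the combination (edgeR adjusted p = 0.897). SCAP was at 117, 122 and 129.7 CPM with H3B-6527, 112, 128 and 124 with the combination, 111, 112 and 113 with lenvatinib and 104, 110.2 and 100.4 with vehicle. It rose by 0.23 ± 0.07 with H3B-6527 (edgeR adjusted p = 0.0220) and by 0.21 ± 0.07 with the combination (edgeR adjusted p = 0.0317), and neither group overlapped vehicle. SCAP passed in neither comparison with library totals (edgeR adjusted p = 0.281 and 0.539) or with no low-count filter (0.0760 and 0.106). INSIG1, itself a sensitive SREBP2 target, was at 23.9, 24.3 and 25.6 CPM with H3B-6527, 27.1, 35.9 and 33.4 with the combination, 23.4, 32.3 and 28.0 with lenvatinib and 24.0, 23.9 and 25.8 with vehicle. The H3B-6527 and vehicle tumors lay in the same narrow range, and the combination tumors were above both. INSIG1 rose by 0.39 ± 0.12 with the combination (edgeR adjusted p = 0.0177), while its difference between H3B-6527 and vehicle was 0.00 ± 0.12 with a 95% interval of -0.26 to 0.27.

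Of the uptake and transport genes, NPC1L1 had the smallest p among the members with H3B-6527. This protein brings cholesterol into enterocytes and, in human liver, recovers it from bile. It was at 351, 317 and 306 CPM with H3B-6527, 322, 328 and 325 with the combination, 216, 189 and 192 with lenvatinib and 188, 182 and 172 with vehicle. The groups with and without H3B-6527 were far apart, and all lenvatinib tumors were slightly above all vehicle tumors. NPC1L1 rose by 0.84 ± 0.08 with H3B-6527 (edgeR adjusted p = 6.37e-06) and by 0.85 ± 0.08 with the combination (edgeR adjusted p = 7.00e-06). TMEM97, an endoplasmic reticulum protein that binds the lysosomal cholesterol transporter NPC1, fell by 0.40 ± 0.10 with H3B-6527 (edgeR adjusted p = 0.00664) and by 0.32 ± 0.10 with the combination (edgeR adjusted p = 0.0206). Its levels were 44.3 ± 3.00 CPM with H3B-6527, 46.8 ± 1.34 with the combination, 52.0 ± 7.39 with lenvatinib and 58.3 ± 4.99 with vehicle (SD, n = 3). STARD4, a carrier of sterols through the cytosol, did not pass, with 8.33 ± 0.96 CPM with H3B-6527, 9.19 ± 0.82 with the combination and 8.54 ± 0.48 with vehicle, and log2 fold changes of -0.04 ± 0.16 and 0.11 ± 0.16. MYLIP, a ubiquitin ligase induced by the sterol receptor LXR, was at 2.50, 1.87 and 1.84 CPM with H3B-6527, 2.50, 2.25 and 1.45 with the combination, 2.08, 2.25 and 1.82 with lenvatinib and 2.23, 1.76 and 2.13 with vehicle. The 4 groups overlapped fully, and at this low level the 95% interval of its change with H3B-6527 ran from -0.45 to 0.51.

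For several small changes the call was lost or gained with another scaling, a fit of fewer groups or a library left out. A library left out also leaves fewer tumors in a group. With library totals the call with H3B-6527 was lost for MVK (edgeR adjusted p = 0.0913) and PMVK (0.0772) and gained, as falls, for HMGCS1 (0.0308), SQLE (0.0202) and SREBF2 (0.0202), and with the combination it was lost for MVD (0.0868), EBP (0.0543) and INSIG1 (0.107) and gained for CYP51A1 (0.0102). In a fit of the compared groups alone, the call with H3B-6527 was lost for PMVK (0.0666), CYP51A1 (0.0536) and SCAP (0.0615), and with the combination it was gained for CYP51A1 (0.0497) and DHCR7 (0.00372). With H3B-6527 the call was lost for ACAT2 without vehicle replicate 1, vehicle replicate 3 or H3B-6527 replicate 1 (edgeR adjusted p from 0.0690 to 0.0750), for MVK without vehicle replicate 1 or 2 (0.0512 to 0.102), for PMVK without vehicle replicate 3 or H3B-6527 replicate 1 or 2 (0.0695 to 0.106), for CYP51A1 without vehicle replicate 1 or 3 or H3B-6527 replicate 1 or 2 (0.0872 to 0.128) and for SCAP without vehicle replicate 1 or 3 or H3B-6527 replicate 3 (0.0659 to 0.0936). Calls gained, all as falls, were LBR (a log2 fold change of -0.37, edgeR adjusted p = 0.0238) and SREBF2 (-0.24, edgeR adjusted p = 0.0382) without H3B-6527 replicate 3, and SQLE without vehicle replicate 2 (-0.36, edgeR adjusted p = 0.0425). With the combination it was lost for ACAT2 (0.121 to 0.131), FDFT1 (0.0688 to 0.107) and TMEM97 (0.0546 to 0.0856) without vehicle replicate 1 or 3 or combination replicate 1 or 2, and for SCAP (0.0878 to 0.124) without vehicle replicate 1 or 3 or combination replicate 2 or 3. It was also lost for SC5D without vehicle replicate 1 or 3 or combination replicate 1 (0.0710 to 0.146, with a log2 fold change of -0.17 without that combination tumor), for INSIG1 without vehicle replicate 1 or 2 or combination replicate 2 or 3 (0.0548 to 0.0882) and for MVD without vehicle replicate 2 or combination replicate 2 (0.0621 to 0.0666). In the fits that left out 1 library, the calls of LSS, TM7SF2, MSMO1, HSD17B7, NPC1L1 and GGPS1 held in both comparisons, as did those of FDFT1, SC5D and TMEM97 with H3B-6527 and of MVK, PMVK and EBP with the combination.

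**Figure D4:**
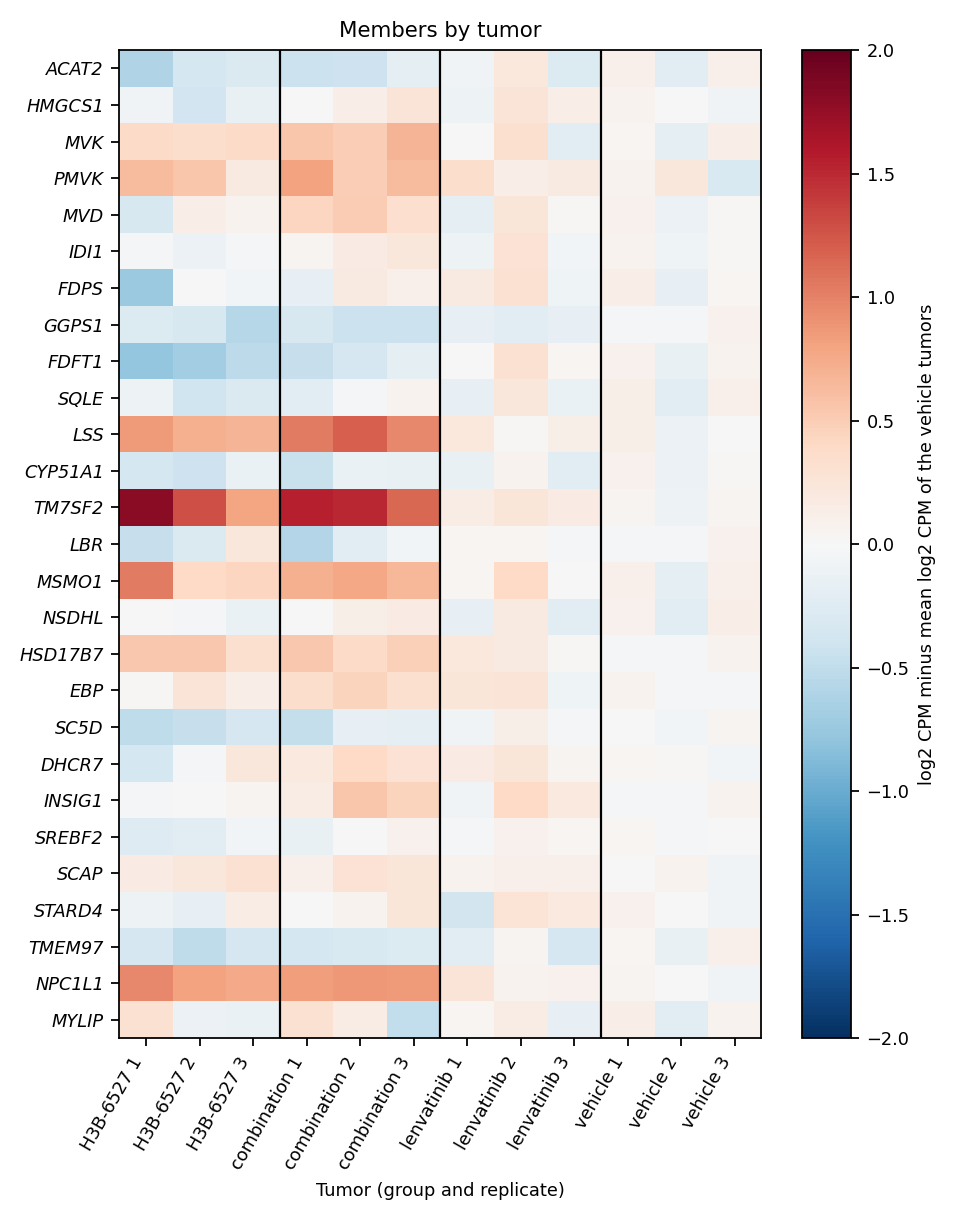
Log2 CPM of the 27 members (rows, in pathway order) minus the mean log2 CPM of the 3 vehicle tumors, in each tumor (columns, in the order H3B-6527, combination, lenvatinib and vehicle). Rows for LSS, TM7SF2, MSMO1, HSD17B7 and NPC1L1 are positive (red) and those for FDFT1 and SC5D negative (blue) in the tumors given H3B-6527. The blue is faint for SC5D in combination replicates 2 and 3 (-0.17 and -0.18) and for FDFT1 in combination replicate 3 (-0.17). TM7SF2 fades over H3B-6527 replicates 1, 2 and 3 (301, 209 and 148 CPM).

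Lenvatinib alone was set against vehicle to see what it did without H3B-6527. None of the 27 members passed with edgeR, DESeq2 or limma-voom. In the edgeR fit of all 12 libraries 0 had an unadjusted p under 0.05, against 6.04% of all genes higher and 4.68% lower. That fit called 0% of all genes, against 128 higher and 113 lower with DESeq2 and 3 higher and 5 lower with limma-voom. In an edgeR fit of these groups alone, 3 members had an unadjusted p under 0.05, and 101 of all genes were called higher and 88 lower. With no low-count filter, edgeR called 28 higher and 13 lower. The 4 members with the smallest p were GGPS1, at -0.19 ± 0.10 on the log2 scale (SE, n = 3 per group, edgeR adjusted p = 0.542), NPC1L1 at 0.14 ± 0.08 (0.596), HSD17B7 at 0.14 ± 0.08 (0.598) and TMEM97 at -0.17 ± 0.10 (0.616). Groups did not overlap for TM7SF2, DHCR7, SCAP and NPC1L1, all higher, or for GGPS1, which was lower. These are 14.8% of the members higher and 3.70% lower, against 11.8% and 10.9% of all genes. Over the members, 95% intervals of the change reached no lower than -0.48 (MYLIP) and no higher than 0.62 (TM7SF2).

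Set directly against each other, the single agents differed in 10 members. With H3B-6527, 6 members were higher and 4 were lower than with lenvatinib, against 20.5% and 20.6% of all genes, where the members' shares were 22.2% and 14.8%. NPC1L1 was higher by 0.70 ± 0.08 on the log2 scale (SE, n = 3 per group, edgeR adjusted p = 4.82e-05), LSS by 0.64 ± 0.09 (2.12e-04), TM7SF2 by 1.17 ± 0.20 (8.35e-04), HSD17B7 by 0.33 ± 0.08 (0.00796), MSMO1 by 0.50 ± 0.17 (0.0303) and MVK by 0.33 ± 0.12 (0.0466). FDFT1 was at -0.78 ± 0.11 (edgeR adjusted p = 1.56e-04), SC5D at -0.44 ± 0.09 (0.00273), ACAT2 at -0.37 ± 0.13 (0.0378) and HMGCS1 at -0.30 ± 0.11 (0.0424), all lower with H3B-6527. SREBF2 did not pass, at -0.21 ± 0.09 (95% interval -0.40 to -0.02, edgeR adjusted p = 0.0695), nor did INSIG1, at -0.18 ± 0.12 (-0.44 to 0.09, edgeR adjusted p = 0.258). The call was lost for ACAT2 without H3B-6527 replicate 1 or 2 or lenvatinib replicate 1 or 2 (0.0621 to 0.187, with -0.24 without lenvatinib replicate 2), for MVK without any H3B-6527 replicate or lenvatinib replicate 1 or 3 (0.0688 to 0.189, with 0.21 without lenvatinib replicate 3), for MSMO1 without H3B-6527 replicate 1 or lenvatinib replicate 1 or 3 (0.0973 to 0.122, with 0.25 without that H3B-6527 tumor) and for HMGCS1 without H3B-6527 replicate 2 or lenvatinib replicate 2 or 3 (0.101 to 0.173). In a fit of these groups alone it was lost for ACAT2 (0.0836), HMGCS1 (0.111), MVK (0.105) and MSMO1 (0.0890), with library totals for MVK (0.0956), where all genes split into 2562 higher and 3989 lower instead of 3248 and 3265, and with no low-count filter for MSMO1 (0.0635). The 4 lower members became 2 without H3B-6527 replicate 2 or lenvatinib replicate 2 and 7 without H3B-6527 replicate 3.

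The combination against lenvatinib shows what H3B-6527 added. Here 8 members were higher and 2 lower, against 19.1% and 20.9% of all genes. LSS was higher by 0.95 ± 0.09 on the log2 scale (SE, n = 3 per group, edgeR adjusted p = 2.34e-05), NPC1L1 by 0.71 ± 0.08 (6.73e-05), TM7SF2 by 1.23 ± 0.20 (6.90e-04), MVK by 0.53 ± 0.12 (0.00439), HSD17B7 by 0.33 ± 0.08 (0.00794), MSMO1 by 0.56 ± 0.17 (0.0180), MVD by 0.39 ± 0.13 (0.0299) and PMVK by 0.42 ± 0.15 (0.0399). FDFT1 was at -0.44 ± 0.11 (edgeR adjusted p = 0.00645) and SC5D at -0.27 ± 0.09 (0.0363), both lower with the combination. The higher members were 5 without lenvatinib replicate 3, and the lower members 1 without lenvatinib replicate 2 or combination replicate 1. The call was lost for MVD without lenvatinib replicate 1 or 3 or combination replicate 1 or 2 (0.0725 to 0.124), for PMVK without lenvatinib replicate 2 or 3 or combination replicate 1 or 3 (0.0734 to 0.147), for MSMO1 without lenvatinib replicate 1 or 3 or combination replicate 2 (0.0567 to 0.0706) and for SC5D without lenvatinib replicate 2 or 3 or combination replicate 1 (0.0593 to 0.158, with -0.18 without that combination tumor). With library totals it was lost for PMVK (0.100) and MVD (0.0837), and all genes, shifted by -0.10, split into 2293 higher and 4348 lower instead of 3020 and 3309.

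The combination against H3B-6527 asks what lenvatinib added to the FGFR4 inhibitor. No member passed with edgeR, DESeq2 or limma-voom, and of all genes tested 0.0126% were called, 2 higher and 0 lower with edgeR. DESeq2 called 75 genes higher and 17 lower, and limma-voom 2 higher and 0 lower. Short of that threshold, the members leaned to higher values in the combination. The log2 difference was positive for 23 of 27, with a median of 0.16 against -0.01 for all genes tested. In the other fits of this comparison positive members numbered 21 to 24, and the median ran from 0.13 to 0.20. An unadjusted p under 0.05 was reached by 7 members, all higher, which is 25.9% against 5.07% of all genes, and 0 were lower, against 4.35%. In 9 members, 33.3%, all 3 combination tumors were above all 3 H3B-6527 tumors, against 5.95% of all genes, and 0 members were apart in the other direction, against 7.15%. The 9 were HMGCS1, MVK, MVD, IDI1, FDFT1, LSS, NSDHL, EBP and INSIG1, spread from the entry of the pathway to its sensor. All members were measured in the same tumors and many share a regulator, so they are not independent of each other. These shares are descriptions without a test. The smallest p belonged to MVD, at 0.45 ± 0.13 on the log2 scale (SE, n = 3 per group, edgeR adjusted p = 0.344), LSS at 0.31 ± 0.09 (0.355), INSIG1 at 0.39 ± 0.12 (0.384) and FDFT1 at 0.34 ± 0.11 (0.384). NPC1L1 and HSD17B7 showed no such lean, both at 0.00 ± 0.08, with 95% intervals of -0.17 to 0.18 and -0.18 to 0.18. A lean to higher values was not particular to the members. Of the 10 FGFR and ERK output genes, 9 were positive in this comparison, with a median of 0.76. An unadjusted p under 0.05 was reached by 6 of them, and 0 passed the adjusted threshold. Of the 8 proliferation genes 0 were positive, with a median of -0.30. Any link of these lists to the members' lean was not tested. The summed CPM of all members, in which abundant genes weigh most, was 3510 to 3868 with the combination, 3290.2 to 3456 with H3B-6527, 3189.6 to 3672 with lenvatinib and 3069 to 3372 with vehicle.

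**Figure D5:**
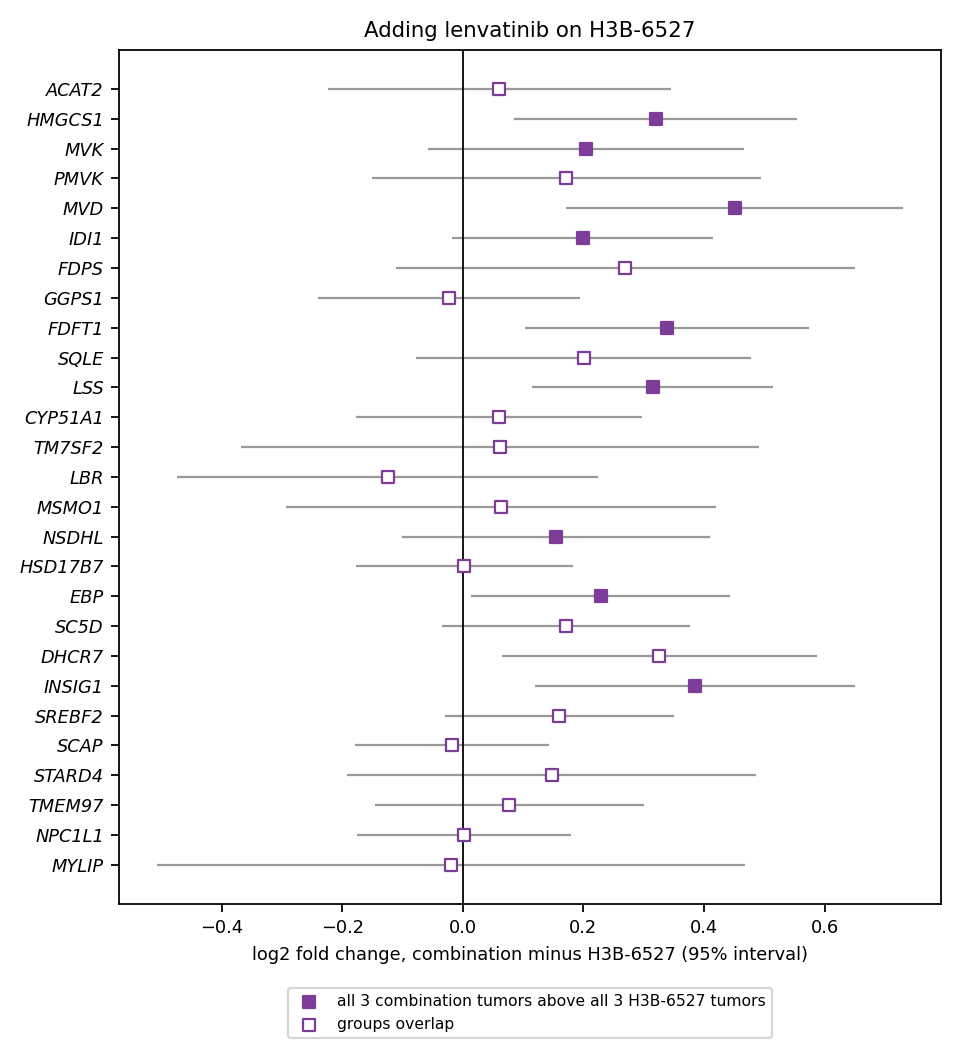
Log2 fold change of the combination over H3B-6527 with its 95% interval for the 27 members in pathway order, n = 3 tumors per group. Filled squares mark the 9 members in which every combination tumor was above every H3B-6527 tumor. Points lie right of 0 for 23 of 27, and none passed an adjusted p under 0.05.

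Non-additivity, the difference of the combination from H3B-6527 less that of lenvatinib from vehicle, was not called for any member with edgeR, DESeq2 or limma-voom, as for 0% of all genes with edgeR (13 higher and 5 lower with DESeq2). With edgeR, 1 member had an unadjusted p under 0.05, a positive value, against 2.58% of all genes positive and 2.81% negative. The members with the smallest p were MVD at 0.42 ± 0.18 on the log2 scale (SE, edgeR adjusted p = 0.909), TMEM97 at 0.24 ± 0.15 (0.917), LSS at 0.20 ± 0.13 (0.923) and FDFT1 at 0.22 ± 0.15 (0.928). Over the members, non-additivity was positive for 19 of 27, with a median of 0.14 against -0.02 for all genes tested, and lenvatinib minus vehicle was positive for 21 of 27, with a median of 0.06 against 0.01. The latter rested on single libraries and on the scaling. Positive members numbered 14 without lenvatinib replicate 2, with a median of 0.01, and 16 without vehicle replicate 2. They numbered 15 with library totals and 24 without vehicle replicate 3. These medians are descriptions without a test, and whether the lean toward the combination over H3B-6527 differs from the effect of lenvatinib alone was not tested over the members.

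Other genes of cholesterol handling, listed by role, cover its storage, export and conversion. Of 8 tested storage and efflux genes, 5 rose and 2 fell with H3B-6527, and 5 rose and 2 fell with the combination. The shares of all genes were 25.2% higher and 24.3% lower with H3B-6527, and 24.8% and 25.3% with the combination. The listed median log2 fold changes were 0.78 and 0.75. ABCG8 and ABCG5, which pair to export sterols into bile, rose by 1.48 ± 0.16 and 1.23 ± 0.14 with H3B-6527 (SE, n = 3 per group, edgeR adjusted p = 1.71e-05 and 1.72e-05). ABCG8 averaged 264 ± 69.2 CPM with H3B-6527, 273 ± 29.6 with the combination, 136 ± 17.9 with lenvatinib and 94.7 ± 2.99 with vehicle (SD, n = 3). SOAT1, which makes cholesterol esters, rose by 1.00 ± 0.09 with H3B-6527 (edgeR adjusted p = 4.35e-06) and by 0.91 ± 0.09 with the combination (edgeR adjusted p = 9.01e-06). The drug and conjugate exporter ABCC1 fell by 1.80 ± 0.22 with H3B-6527 (edgeR adjusted p = 4.16e-05).

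Of 14 bile acid synthesis genes, 11 rose and 0 fell with H3B-6527 and 11 rose and 1 fell with the combination, with medians of 1.03 and 1.09, against 25.2% of all genes higher and 24.3% lower with H3B-6527 and 24.8% and 25.3% with the combination. CYP7A1 averaged 10.9 ± 5.59 CPM with H3B-6527, 7.95 ± 3.17 with the combination, 0.0857 ± 0.0305 with lenvatinib and 0.0873 ± 0.0365 with vehicle, near the floor of 3 counts in the groups without H3B-6527 (0.0764 to 0.0962 CPM per library). The racemase AMACR rose by 1.23 ± 0.12 with H3B-6527 (edgeR adjusted p = 5.96e-06) and by 1.10 ± 0.12 with the combination (edgeR adjusted p = 1.34e-05). In the list of feedback and trafficking genes, 8 of 21 rose and 4 fell with H3B-6527 and 9 rose and 3 fell with the combination, with medians of 0.08 and 0.21, beside the same shares of all genes (25.2% higher and 24.3% lower, and 24.8% and 25.3%). LXR alpha (NR1H3), the oxysterol receptor, rose by 1.00 ± 0.13 with H3B-6527 (edgeR adjusted p = 5.91e-05) and by 1.07 ± 0.13 with the combination (edgeR adjusted p = 3.52e-05). The phospholipid remodeling enzyme LPCAT3 rose by 1.68 ± 0.25 with H3B-6527 (edgeR adjusted p = 2.20e-04), and NPC1 fell by 0.60 ± 0.09 (edgeR adjusted p = 1.23e-04).

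The isoprenoid branch draws on the same precursors, and more of its genes fell than rose. Of its 14 genes 1 rose and 6 fell with H3B-6527, and 1 rose and 7 fell with the combination. Their median log2 fold changes were -0.20 and -0.27. Among the 15836 genes tested, the shares were 25.2% higher and 24.3% lower under H3B-6527, and 24.8% and 25.3% under the combination. PDSS1, which makes the side chain of ubiquinone, fell by 0.81 ± 0.14 with H3B-6527 (edgeR adjusted p = 4.68e-04) and by 0.98 ± 0.14 with the combination (edgeR adjusted p = 1.19e-04). RABGGTB and FNTA, subunits of protein prenyltransferases, fell by 0.55 ± 0.12 and 0.35 ± 0.09 with H3B-6527 (edgeR adjusted p = 0.00211 and 0.00660). Proliferation genes, given for comparison, had 0 of 8 higher and 4 lower with H3B-6527 and 0 higher and 7 lower with the combination, against 25.2% of all genes higher and 24.3% lower with H3B-6527 and 24.8% and 25.3% with the combination, and their part in the members' values was not tested.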

How the data were processed

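RNA sequencing counts of 12 xenograft tumors were used, in 4 groups of 3, grouped by the treatment label. Per the labels, each tumor came from its own mouse, and nothing pairs animals between groups. The deposited values are expected counts, which the authors estimated with kallisto, per the submitters' processing notes, and gave per human gene symbol; 40.2% of values were not whole. Those notes also name STAR, GRCh37 and GRCm38. Versions, annotation and any removal of mouse reads are not given in the sources used here, so host reads could add to conserved genes. Counts were rounded, filtered with filterByExpr (15836 genes) and tested with edgeR 4.0.16 in R 4.3.3 (TMM, robust quasi-likelihood F-test, 2-sided, all 12 libraries in 1 fit with 8 residual degrees of freedom, Benjamini-Hochberg, threshold 0.05) in 7 comparisons. SE is the fold change over the square root of F. Alternatives were RLE factors, library totals, DESeq2 1.42.0, limma-voom (limma 3.58.1), no filter, a fit of the compared groups alone and leaving out each library. The members, lists and naming rule were chosen with earlier results of these data known. All members are named with their changes against vehicle under H3B-6527 and the combination; in other comparisons those past the threshold are named, or the 4 with the smallest p, and up to 4 genes per further list; some genes are not reported here. The 3-count floor was 0.0762 to 0.126 CPM and, like all counting limits, covers counting error only. No human sequence or annotation was used, so the planned promoter motif search was not made and levels are compared within a gene only.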

Additional observations from a re-analysis of the deposited data

How the results depend on the processing

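No paired analysis was possible because the labels carry no replicate numbers shared between groups. Counts of members called stayed within 1.5 times the reported ones with RLE factors, DESeq2, limma-voom and no low-count filter. With library totals, members higher were 5 with H3B-6527 and 7 with the combination against vehicle, and members lower were 7 for H3B-6527 against lenvatinib and 4 for the combination against lenvatinib. In a fit of H3B-6527 and lenvatinib alone, 2 members were lower. Leaving out 1 library gave 4 to 8 lower and 6 to 7 higher with H3B-6527 against vehicle, 1 to 5 lower and 8 to 11 higher with the combination against vehicle, 2 to 7 lower and 4 to 6 higher for H3B-6527 against lenvatinib, and 1 to 2 lower and 5 to 7 higher for the combination against lenvatinib. It gave 0 in the other 3 comparisons. The cause of these shifts was not tested; a library left out also means fewer samples. Of 1052 alternative values of named members, 924 kept direction and side of the threshold, 89 lost the call, 9 gained it and 30 changed sign, none of the last being called in either fit. The sign changes with library totals were INSIG1 (-0.117) and MYLIP (-0.0932) with H3B-6527, and HMGCS1 (-0.0214), FDPS (-0.106), NSDHL (-0.0609), STARD4 (-0.0379) and MYLIP (-0.136) with the combination. For INSIG1 with H3B-6527 they were also -0.000942 with RLE factors, -0.00534 with DESeq2 and -0.00628 without a filter, and for MYLIP with the combination -0.0385 with limma-voom. Leaving out 1 library, values with H3B-6527 ran from -0.0259 to 0.0386 for INSIG1, -0.133 to 0.101 for MYLIP, -0.123 to 0.0970 for MVD, -0.135 to 0.0183 for STARD4 and -0.183 to 0.106 for DHCR7. With the combination they ran from -0.0401 to 0.131 for FDPS, -0.0229 to 0.152 for NSDHL, -0.155 to 0.218 for MYLIP, -0.0725 to 0.0468 for SREBF2 and -0.164 to 0.0171 for SQLE. With 3 tumors a group, even changes larger than their SE can go uncalled. DHCR7 with the combination, at 0.29 ± 0.12, did not pass in the fit of all 12 libraries (edgeR adjusted p = 0.0575).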

Other observations

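The cytosolic thiolase ACAT2 has a mitochondrial isoenzyme, ACAT1, that serves ketone body metabolism and not sterol synthesis, and the pair moved in opposite directions. ACAT1 was chosen after its values were seen. It was at 160.4, 109 and 72.5 CPM with H3B-6527, 127, 99.4 and 86.1 with the combination, 61.6, 58.2 and 48.3 with lenvatinib and 52.6, 48.4 and 48.2 with vehicle. The tumors given H3B-6527 were above all others, and within the H3B-6527 group replicate 1 was highest and replicate 3 lowest, as for TM7SF2. ACAT1 rose by 1.20 ± 0.23 on the log2 scale with H3B-6527 (SE, n = 3 per group, edgeR adjusted p = 0.00137) and by 1.06 ± 0.23 with the combination (edgeR adjusted p = 0.00274), whereas ACAT2 fell by 0.41 ± 0.13 and 0.35 ± 0.13.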
